A study of Mus musculus with 11 samples.

Results

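Transcripts of 10 genes of apical polarity and spindle orientation were followed in the embryonic mouse brain with and without Kif20a, a mitotic kinesin: Pard3, Prkci, Crb2, Llgl1, Numb, Numbl, Gpsm2, Cdh2, Ctnnb1 and Afdn. They were chosen by name, as the rows of the expression tables that carry these symbols, and they make up 10 of the 20475 genes measured. Of these, 9 were found under their own symbols, and Afdn was found under its older symbol Mllt4. All 10 passed the filter of a mean of at least 10 normalized counts in both tables, so no gene of the group was lost to low values.

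RNA was taken at E12.5 in 2 comparisons, each with its own controls. The germline comparison held 3 wild-type libraries and 3 libraries of the germline Kif20a knockout, a knockout-first line derived from a single embryonic stem cell clone, in which Kif20a is interrupted in every cell by a cassette that holds LacZ and neomycin resistance. The inducible comparison held 2 control libraries and 3 knockout libraries, all of them from litters exposed to tamoxifen at E9.5 and E10.5. As the study describes this line, its controls were Kif20a fl/fl without Cre, and its knockouts were Kif20a fl/fl with Nestin-CreERT2, a tamoxifen-activated recombinase whose Nestin promoter is used in neural progenitors. The floxed allele was therefore shared by both groups and the labels call the controls wild type. Cells in which Cre did not recombine the allele keep an intact Kif20a. The labels name the tissue of the germline libraries forebrain, where the methods name cortex.

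Progenitors of the embryonic cortex form a sheet of polarized cells whose apical ends line the ventricle and are tied to each other by adherens junctions. The PAR complex, with PAR-3 (Pard3) and atypical protein kinase C iota (Prkci), and the Crumbs proteins (Crb2) mark the apical membrane, while Lgl1 (Llgl1) is held at the basolateral side. LGN (Gpsm2) joins Gα subunits to NuMA and dynein at the cell cortex and so helps to set the plane of the mitotic spindle, and Numb and Numbl are adaptors that act in endocytosis, on Notch and at the junctions. N-cadherin (Cdh2), β-catenin (Ctnnb1) and afadin (Afdn) build the junctions themselves. The question addressed here is whether the transcripts of these genes differ when Kif20a is removed.

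Several members have a close relative, and reads can only be told apart where the sequences differ. In the GENCODE M1 gene models on NCBIM37, the Ensembl name of the mm9 build, 0 of the 50-base words in the transcripts of any member also occurred in a transcript of another protein-coding gene. The longest stretch of identical coding bases was 22 between Prkci and Prkcz, its atypical protein kinase C sister, and 14 between Numb and Numbl. The longest identical run of Numb and Numbl follows with its flanking bases, 5′ to 3′ on the coding strand, with identical letters in capitals. Stretches that are alike but for mismatches were not searched for. The windows start at coding bases 254 of Numb and 344 of Numbl, and 26 of 30 letters are alike.
Numb: AGgCcGTtCTGTGGGTGTCAGCgGATGGGC
Numbl: AGtCtGTcCTGTGGGTGTCAGCtGATGGGC
Identical coding stretches were also short between Pard3 and Pard3b (17 bases), Crb2 and Crb1 (14), Llgl1 and Llgl2 (20), Gpsm2 and Gpsm1 (12), Cdh2 and Cdh4 (19), and Ctnnb1 and Jup (20). Exon overlap with a neighbouring gene was of another kind. It covered 0 bases in Pard3, Prkci, Numb and Cdh2, and between 64 bases (Llgl1, with Flii) and 240 bases (Ctnnb1, with Ulk4) in the others. Numbl shares 85 bases with Adck4 on the same strand, so reads there could come from either gene. The other overlaps are with genes on the opposite strand. The sources used here do not state whether counting used strand, so reads in those bases could come from either gene too.

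Total normalized counts lay between 13048716 and 15551274 in the germline libraries and between 24118520 and 24497307 in the inducible libraries. These totals were taken after the authors' normalization, so they do not give the depth. Taking the most common low value in a library as 1 read, a rough estimate, the least expressed member in each library rested on a counting error of between 3.64% and 5.28% in the germline and between 2.93% and 3.37% in the inducible comparison. Kif20a itself was 2477 ± 194 normalized counts in wild-type and 429 ± 67.1 in germline knockout libraries (SD, n = 3 each), which left 17.3% (log2 fold change −2.54, adjusted p = 0.00845). With inducible deletion it was 4802 ± 59.4 (n = 2) and 2964 ± 143 (n = 3), which left 61.7% (log2 fold change −0.70, adjusted p = 0.0107). These levels are over all cells of the tissue and over all exons of the gene. Exons before the germline cassette can still be transcribed, so the germline level is not a measure of full-length Kif20a. The study describes the wild-type and mutant embryos as littermates, but nothing in the labels says how libraries map to embryos or litters. The main fit did not pair libraries, so p-values measure the spread between these libraries only.

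Germline knockout replicate 2 stood apart from the others. Over 12 neuronal markers its median was 1.01 log2 above the wild-type mean, against −1.13 and −0.83 in knockout replicates 1 and 3. Over 10 markers of cranial mesenchyme it was at −4.15 log2 (3 of 10 at or under 3 counts), and over 6 microglial markers at −4.31 (4 of 6 at or under 3 counts), where no other germline library had a marker of either list at or under 3 counts. Knockout replicate 1 had diencephalic markers 3.32 log2 above the wild-type mean (6 genes). Genes of hypoxia and glycolysis were 2.26, 2.66 and 0.23 log2 above that mean in knockout replicates 1, 2 and 3 (17 genes), and the wild-type libraries lay within 0.072 of it. The summed counts of 10 radial glial markers spanned 41160 to 46150 over the 6 germline libraries, although single markers had log2 fold changes from −0.80 to 0.73, with 1 called lower. Those of 5 intermediate progenitor markers spanned 3337 to 9465 and were highest in knockout replicate 2. The 4 Y-linked genes of the inducible table summed to 1.96 and 4.24 counts in the control and 2389 to 3209 in the knockout libraries, so sex of the embryos and genotype cannot be told apart there. The germline libraries had high and low sums of these genes in both groups. In whole tissue, a change in the share of a cell type and a change per cell cannot be told apart either.

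In wild-type germline libraries, normalized counts per kb of transcript placed Ctnnb1 first (4714 ± 203, SD, n = 3), then Cdh2 (1197 ± 206). Llgl1 (548 ± 118), Afdn (488 ± 23.2) and Gpsm2 (474 ± 33.4) followed, with ranges that overlapped from each to the next. Below them came Pard3 (264 ± 59.5), Prkci (234 ± 21.3), Numbl (201 ± 18.2), Crb2 (171 ± 45.9) and Numb (157 ± 19.3), and here too each overlapped its neighbour. The junction genes Ctnnb1 and Cdh2 thus had the highest levels, and the Numb adaptors and the apical determinants the lowest. The order in the inducible controls, a table normalized on its own, again began with Ctnnb1 (9717 ± 92.6, n = 2), Cdh2 (3108 ± 134) and Llgl1 (1520 ± 12.4) and ended with Numb (298 ± 19.8). Between them lay Gpsm2 (920 ± 39.6), Afdn (816 ± 23.3), Pard3 (550 ± 8.65), Crb2 (490 ± 33.2), Numbl (482 ± 28.9) and Prkci (451 ± 23.3). The ranges of Crb2 and Numbl overlapped, as did those of Numbl and Prkci, and all other neighbours were apart. Lengths are those of the longest coding-gene transcript in GENCODE M1, which may differ from the exons the authors counted.

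For most members the level lay far above that of the nearest relative. Per kb, wild-type germline libraries held 4.61 times as much Pard3 as Pard3b, 3.32 times as much Prkci as Prkcz and 6.66 times as much Crb2 as Crb1, and in inducible controls the ratios were 5.42, 3.87 and, for Crb2 in the separate libraries, 9.37 and 14.6. Llgl1 exceeded Llgl2 by 125 times in both tables, and β-catenin exceeded Jup, which encodes the related γ-catenin, by 57.4 and 40.7 times. Cdh2 exceeded Cdh4 by 7.53 and 6.63 times, and the epithelial cadherin Cdh1 by 591 and 749 times, with Cdh1 at 2.10 and 4.26 counts per kb. Gpsm2 was closer to Gpsm1, at 1.47 and 1.40 times its level. Numb was the exception, at 0.778 and 0.618 times the level of Numbl, and per kb it was below Numbl in each of the 11 libraries. Before division by length, Numb and Numbl were at 556.4 and 556.1 counts in germline wild types and 1057 and 1330 in inducible controls. The lengths used were 3549 bases for Numb and 2760 for Numbl, whereas all merged exons of the gene models cover 3823 and 8673 bases. The order of these 2 genes thus rests on the lengths used, in both tables.

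**Figure D1:**
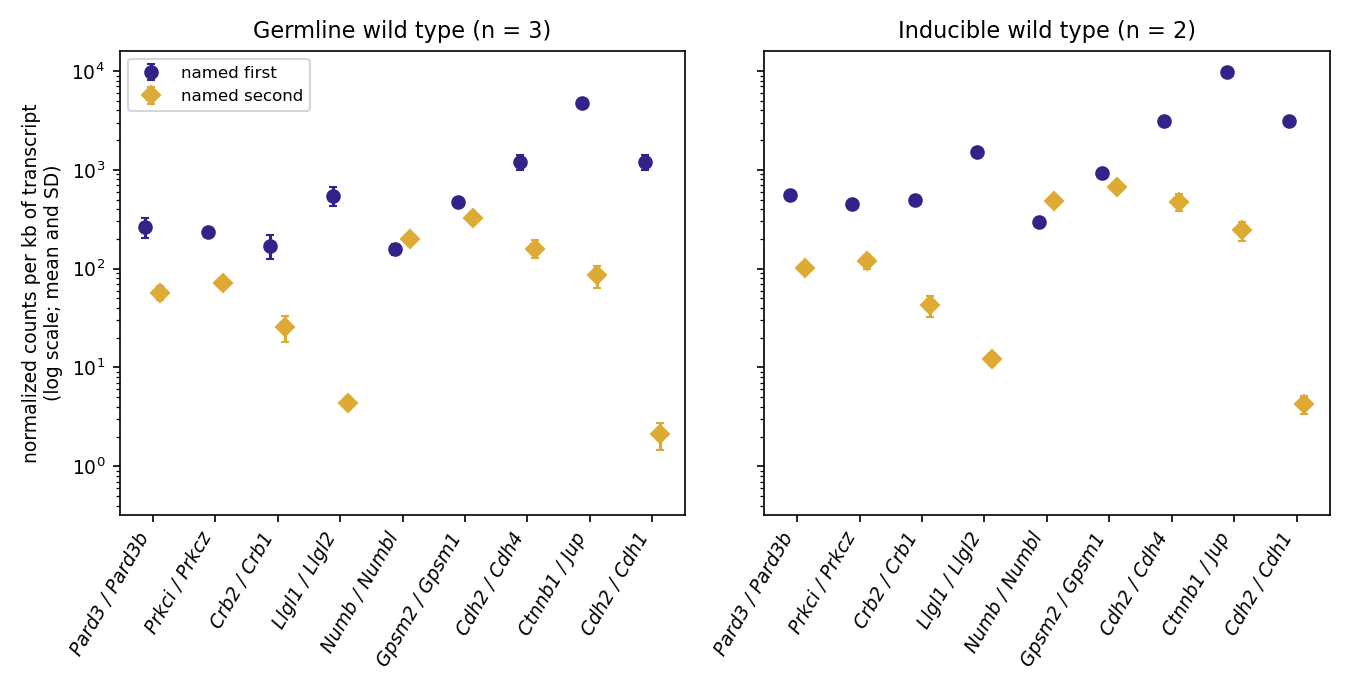
Normalized counts per kb of transcript (log scale) for members and relatives in wild-type libraries, as mean and SD, for the germline (left, n = 3) and inducible (right, n = 2) tables. Ctnnb1, at 4714 and 9717, stands highest, and Numb is the member that lies under its relative, Numbl, at the transcript lengths used.

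None of the 10 genes was called in either comparison. A call needed at least a 1.5-fold change together with a limma P no larger than 0.05 before adjustment. In the germline comparison 0 of 10 members passed, where 2.74% of the 13938 genes tested did, and 0 of 10 reached that P without a fold threshold, against 5.39% of all genes. With inducible deletion 0 of 10 passed, where 1.29% of 14081 genes did, and 2 of 10 (Llgl1 and Gpsm2, both lower in knockouts) reached the P alone, against 6.01% of all genes (3.03% lower). That count was 4 without knockout replicate 1 (Pard3 and Cdh2 in addition), 1 without control replicate 1 or knockout replicate 3, and 0 without control replicate 2 or knockout replicate 2. Adjusted p-values from limma over all genes tested were between 0.779 and 0.934 in the germline and between 0.825 and 0.945 in the inducible comparison. The medians of the members lay on opposite sides of 0. In the germline comparison 9 of 10 members, all but Ctnnb1, had a log2 fold change above 0, with a median of 0.19, against 44% of all genes and a median of −0.043. Of the inducible values 2 of 10, Prkci and Afdn, were above 0, with a median of −0.097, against 49.2% of all genes and a median of −0.0019. Leaving out knockout replicate 2 gave a germline median of 0.028, and leaving out wild-type replicate 1 gave 0.033, whereas the inducible median stayed between −0.10 and −0.060 whichever library was left out. Whether the comparisons differ was not tested.

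**Figure D2:**
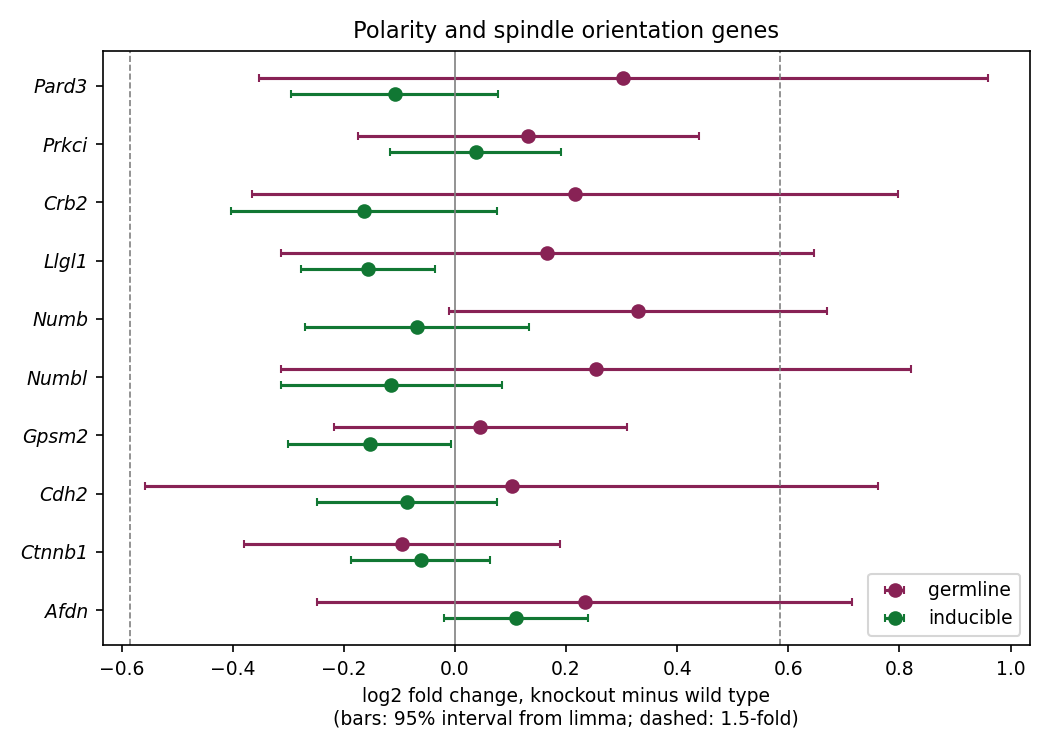
Log2 fold change of each member, knockout minus wild type, with its 95% interval from limma, for germline (purple) and inducible (green) comparisons; dashed lines mark 1.5-fold. Germline intervals are wider, and every inducible interval lies inside the dashed lines, between 0.756-fold and 1.18-fold.

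Precision differed between the tables. The 95% intervals of all 10 inducible fold changes lay within 1.5-fold in either direction, from 0.756 (the lower end for Crb2) to 1.18 (the upper end for Afdn). In the germline comparison this held for Prkci (0.886 to 1.36), Gpsm2 (0.860 to 1.24) and Ctnnb1 (0.769 to 1.14), and larger changes of the other 7, up to 1.94-fold for Pard3, lay inside the intervals. Standard errors ran from 0.11 to 0.28 log2 in the germline and from 0.051 to 0.10 in the inducible comparison. A miss at this precision does not show that the levels were equal. The inducible intervals describe whole tissue in which 61.7% of Kif20a was left. They give no bound on the change in cells that lost Kif20a, and sex of the embryos and genotype cannot be told apart in them.

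Of the PAR complex, Pard3 lies at chr8:129587793-130136186 on the plus strand (NCBIM37, as for all positions given) and encodes the scaffold that recruits the kinase module to the apical junction. Germline wild-type replicates 1, 2 and 3 held 1198, 1889 and 1514 normalized counts of Pard3, and knockout replicates 1, 2 and 3 held 1447, 2753 and 1616. Only knockout replicate 2 lay above the wild-type range, and the groups overlapped. The log2 fold change of 0.30 (SE 0.28) went to 0.021 without that library. Inducible controls held 3234 and 3163 counts, and knockouts 3297, 2856 and 2771, a log2 fold change of −0.11 (SE 0.079). Knockout replicates 2 and 3 were below the controls and replicate 1 above them.

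Prkci (chr3:30894669-30951663, plus strand) encodes the atypical protein kinase C of the complex. Its germline values were 954, 1059 and 1145 in wild-type and 1219.6, 1183 and 1056 in knockout libraries. Knockout replicates 1 and 2 were higher than all wild types and replicate 3 lay among them, for a log2 fold change of 0.13 (SE 0.13). In the inducible comparison controls held 1951 and 2099 counts and knockouts 2201, 2045 and 1989. The groups overlapped (log2 fold change 0.037, SE 0.066), and the sign turned, to −0.016 and −0.0049, when control replicate 1 or knockout replicate 1 was left out.

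Crb2 (chr2:37631769-37654623, plus strand) encodes the Crumbs transmembrane protein of the apical membrane. Germline wild-type libraries held 751, 1231 and 1281 counts, and knockouts 1369, 983 and 1380.5. Wild-type replicate 1 was the lowest of the 6, and without it the log2 fold change of 0.22 (SE 0.25) became −0.031. Inducible controls held 2974 and 3273 counts, and knockouts 3057, 2916 and 2423. Knockout replicate 3 was the lowest and the groups overlapped. At −0.16 (SE 0.10) this was the largest difference of any member in the inducible comparison, and it was −0.063 without knockout replicate 3.

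On the basolateral side, Llgl1 (chr11:60513225-60527688, plus strand) encodes a substrate of atypical protein kinase C that is kept off the apical membrane. In germline libraries it was at 1775, 2599 and 2699 counts in wild-type and 2477, 3114 and 2282 in knockouts, with overlap and a log2 fold change of 0.17 (SE 0.20). It was 0.036 without knockout replicate 2, and the sign turned, to −0.026, without wild-type replicate 1. Inducible controls held 6580.1 and 6504 counts, close to each other, and the knockouts 6079, 5657 and 5874. All 3 knockouts lay below both controls, at 89.7% of the control mean. Llgl1 had the smallest P of any member, 0.0176 by limma for a log2 fold change of −0.16 (SE 0.051), but the adjusted p was 0.825. Leaving out control replicate 1, control replicate 2 or knockout replicate 2 raised the limma P to 0.0761, 0.0547 and 0.0734. An exact permutation test gave p = 0.1, the smallest it can give with 2 against 3 libraries.

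Numb (chr12:85134984-85262884, minus strand) encodes an adaptor inherited unequally in asymmetric divisions of flies and expressed together with Numbl in cortical progenitors. Germline wild-type libraries held 508, 527 and 635 counts, and knockouts 732, 711 and 647. Each knockout lay above each wild type, so Numb was the 1 member of 10 whose germline groups did not overlap, where 13.5% of all genes tested had no overlap (5.9% with knockouts higher). Its log2 fold change of 0.33 (SE 0.14) was the largest among the members in the germline comparison, and P was 0.0561, adjusted p = 0.779, by limma. By exact permutation p was 0.1, and no smaller p is possible with 3 libraries a side. Without knockout replicate 2 the log2 fold change was 0.31, and without wild-type replicate 3 it was 0.43 with a limma P of 0.0422. Without wild-type replicate 1 it was 0.27 with a limma P of 0.151. Inducible values of Numb were 1107 and 1007 counts in controls and 997, 1095 and 934 in knockouts. Those groups overlapped, and the log2 fold change was −0.068 (SE 0.086; 95% interval of the fold 0.830 to 1.10).

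Numbl (chr7:28043452-28067163, plus strand) encodes the Numb-like adaptor. Its germline values were 499, 575 and 594 in wild-type and 584, 954 and 519 in knockout libraries. Knockout replicate 2 was the only high value, and without it the log2 fold change of 0.25 (SE 0.24) became −0.0095. Inducible controls held 1386 and 1274 counts, and knockouts 1119.7, 1248 and 1323. Knockout replicates 1 and 2 were below both controls and replicate 3 between them (log2 fold change −0.11, SE 0.085).

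Gpsm2 (chr3:108481556-108525105, minus strand), the LGN gene of spindle orientation, had the smallest standard error of the germline comparison. Wild-type libraries held 1506, 1569 and 1725 counts and knockouts 1675, 1643 and 1629.6. All 3 knockouts lay inside the wild-type range, with a log2 fold change of 0.046 (SE 0.11). In the inducible comparison controls held 3013 and 3202 counts and knockouts 2898, 2860.5 and 2629.9. Here each knockout lay under both controls, at 90.0% of their mean, with a log2 fold change of −0.15 (SE 0.063). The limma P was 0.0431 with an adjusted p of 0.825, and the exact permutation p was 0.1. Leaving out control replicate 2, knockout replicate 2 or knockout replicate 3 raised the limma P to 0.221, 0.0689 and 0.116.

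Cdh2, on chromosome 18, encodes N-cadherin, the main cadherin of the neuroepithelium, and is also expressed by neurons. Germline wild-type libraries held 4663, 6182 and 6541 counts, and knockouts 5175, 9447 and 4768. Knockout replicate 2 was far above the rest, while replicates 1 and 3 were in the lower part of the wild-type range. The log2 fold change was 0.10 (SE 0.28) with that library and −0.21 without it, so the sign rested on it. It also turned, to −0.047, without wild-type replicate 1. Inducible controls held 14593 and 15511 counts and knockouts 15289.5, 13798 and 13494, with overlap and a log2 fold change of −0.086 (SE 0.069).

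Ctnnb1 (chr9:120838334-120869625, plus strand), the β-catenin gene that links cadherins to α-catenin and serves Wnt signaling, had the highest level of the 10. In germline libraries it was at 16279, 17731 and 17225 counts in wild types and 16610.3, 15464 and 15869 in knockouts. Knockout replicates 2 and 3 were below all wild types and replicate 1 among them (log2 fold change −0.096, SE 0.12). Inducible controls held 35441 and 34966 counts and knockouts 33879, 33635 and 33706. No knockout reached the controls, but the gap was small, at 95.8% of the control mean (log2 fold change −0.061, SE 0.053), and the limma P was 0.288.

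Afdn, listed as Mllt4 (chr17:13897546-14043157, plus strand), encodes afadin, which ties nectins to actin at the junction. Germline wild-type libraries held 3592, 3950.3 and 3767 counts, and knockouts 3982, 6079 and 3589.8. Knockout replicate 2 was again the highest value by far, and the log2 fold change of 0.23 (SE 0.20) became 0.0054 without it. In the inducible comparison controls held 6435 and 6180.5 counts and knockouts 7127, 6563 and 6749. Afdn was higher in each knockout than in both controls, at 108% of the control mean (log2 fold change 0.11, SE 0.055). Its limma P was 0.0834, and the exact permutation p was 0.2.

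In all, 4 of 10 members had inducible groups that did not overlap, Llgl1, Gpsm2 and Ctnnb1 lower and Afdn higher, against 22.6% of all genes tested (12.2% lower and 10.4% higher). Their knockout means were 89.7%, 90.0%, 95.8% and 108% of the control means.

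**Figure D3:**
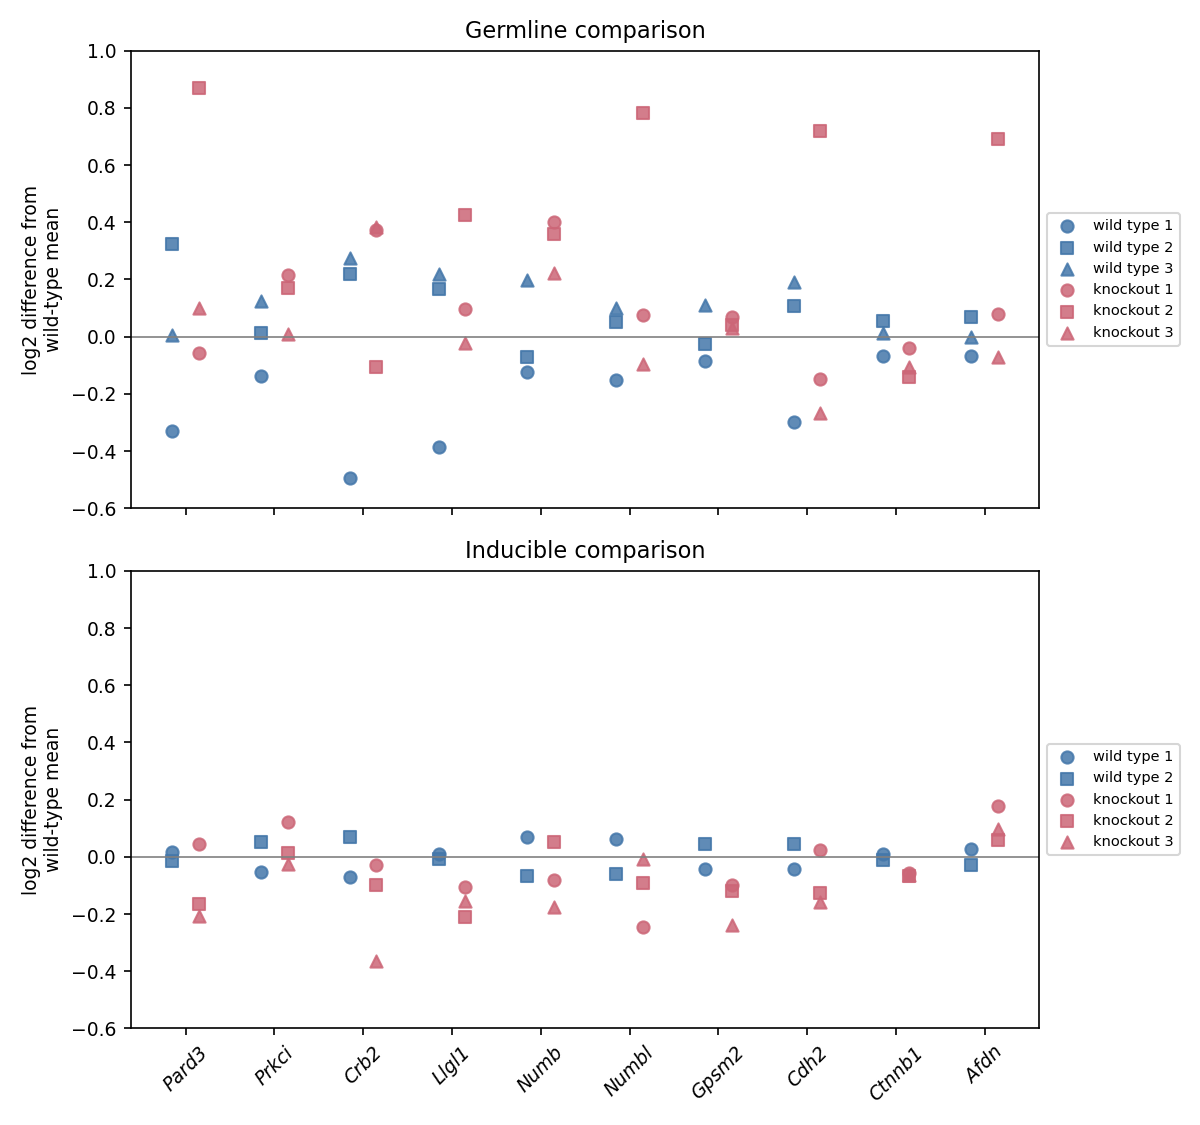
Each library's log2 difference from the wild-type mean of its table for the 10 members, germline above and inducible below, with wild types in blue and knockouts in red. Germline knockout replicate 2 (red square) lies at 0.69 or more for Pard3, Numbl, Cdh2 and Afdn, while the inducible libraries stay between −0.36 and 0.18.

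The germline spread followed a few libraries. Knockout replicate 2 was the highest of the 6 libraries for 5 members (Pard3, Llgl1, Numbl, Cdh2 and Afdn) and the lowest for Ctnnb1, and wild-type replicate 1 was the lowest for 8 of 10, all but Ctnnb1 and Afdn. The median of the members was 0.39 log2 above the wild-type mean in knockout replicate 2, against 0.078 and −0.0070 in knockout replicates 1 and 3 and −0.14 to 0.12 in wild types. Its neuronal and hypoxia medians were also above that mean, and its endothelial (−2.0), mesenchymal and microglial medians below. Their part in the members' values was not tested. Without that library the log2 fold changes of Prkci, Gpsm2, Ctnnb1 and Numb were 0.11, 0.048, −0.072 and 0.31, and that of Crb2, 0.22 with all libraries, was 0.38. Coefficients of variation among knockouts were 40.1% for Cdh2, 36.6% for Pard3, 34.2% for Numbl and 29.4% for Afdn, against 17.2%, 22.5%, 9.02% and 4.75% among wild types. The other 6 members varied less among knockouts than among wild types, as Crb2 did (18.2% against 26.9%). Gpsm2 and Ctnnb1 had the lowest values among knockouts, 1.40% and 3.64%. Inducible knockout replicate 3 was lowest for 5 members (Pard3, Crb2, Numb, Gpsm2 and Cdh2), and its members' median was −0.16, against −0.042 and −0.094 in knockout replicates 1 and 2. The same library had the lowest median over 16 markers of cortical hem and choroid plexus (−1.17, against −0.28 and −0.43) and the highest over 10 ventral telencephalic markers (0.74). Here too, the part of these markers in the members' values was not tested.

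**Figure D4:**
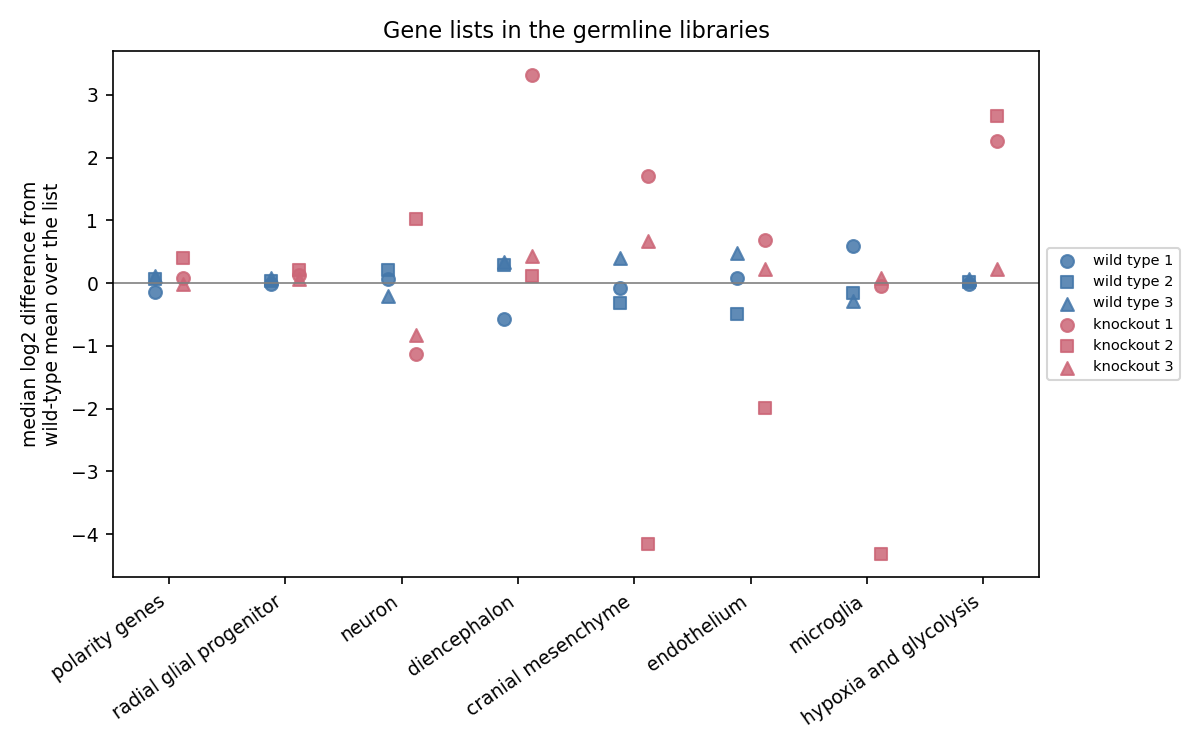
Median log2 difference from the wild-type mean over the 10 members and 7 marker lists in each germline library (wild types blue, knockouts red). Members and radial glial markers stay within 0.39 of the wild-type mean, whereas knockout replicate 2 reaches −4.15 for cranial mesenchyme and −4.31 for microglia, and knockout replicates 1 and 2 exceed 2 for hypoxia and glycolysis.

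The other genes of the same machinery were read from lists of complexes, junctions, spindle orientation and Numb partners. Of 79 such genes in the tables, 76 passed the filter, and Crb3, Insc and Rgs14 were too low to test in either table. None of the 76 was called in either comparison. Among all genes tested, 2.74% (germline) and 1.29% (inducible) were called. Shares this low leave few calls to be looked for among 76 genes, so their absence does not set these genes apart. At a limma P of up to 0.05 alone, 3 were higher and 0 lower in germline knockouts. Of all 13938 genes tested there, 409 (2.93%) were higher and 342 lower. In inducible knockouts 2 were higher and 5 lower, against 2.98% and 3.03% of all genes. The median log2 fold change was 0.079 (48 of 76 above 0) in the germline and −0.046 (24 of 76 above 0) in the inducible comparison.

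In the germline comparison the 3 genes were Dlg1, Plekha7 and Htt, and their groups did not overlap. Dlg1, a scaffold of the basolateral Scribble complex with 1804, 1607 and 2083 counts in wild types and 2323, 2746 and 2271 in knockouts, had a log2 fold change of 0.42 (SE 0.15, limma P 0.0229). For Plekha7, a partner of p120-catenin at the adherens junction, the values were 395, 509 and 514 against 645, 784 and 555 (log2 fold change 0.48, SE 0.19, limma P 0.0363). Knockout replicate 2 was highest for both genes. Htt, the huntingtin gene, whose product acts in spindle orientation through dynein, was at 1707, 2069.6 and 2034 in wild types and 2231, 3049 and 2432 in knockouts (log2 fold change 0.40, SE 0.16, limma P 0.0382). All 3 had an adjusted p of 0.779, and none kept a P of up to 0.05 whichever library was left out. Without knockout replicate 2 the P of Plekha7 and Htt was 0.0722 and 0.0718, and leaving out wild-type replicate 1 or 2 gave Dlg1 a P of 0.0560 or 0.0843. Without either of those wild types, 0 pathway genes reached that P, against 1.95% and 2.10% of all genes. The PAR and CDC42 list (11 tested) and the Crumbs list (7 tested) had 0 genes at P of at most 0.05 and medians of −0.0041 and −0.10, while the Scribble list (0.14, 8 genes), the junction list (0.15, 22 genes) and the Numb partners (0.084, 13 genes) had medians above 0. Spindle orientation genes (15 tested) had a median of −0.017.

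With inducible deletion Shroom3, an actin regulator of apical constriction, held 2204 and 2230.3 counts in controls and 1897, 1816 and 1675 in knockouts (log2 fold change −0.31, SE 0.066, limma P 0.00210). Notch3, a Notch receptor, was at 4714 and 4892 in controls and 4207, 4057 and 4113 in knockouts (log2 fold change −0.22, SE 0.049, limma P 0.00249). The Notch ligand gene Dll1, at 2951 and 2988 against 2676, 2594 and 2512, had a log2 fold change of −0.20 (SE 0.052, limma P 0.00646). For all 3 genes each knockout was below each control, and adjusted p-values were 0.628, 0.656 and 0.740. Among spindle orientation genes the Gα subunit genes Gnai1 and Gnai2 went opposite ways. Groups overlapped for Gnai3, the other Gα subunit gene of that list (log2 fold change 0.033, SE 0.054). Gnai1 was at 425 and 386 in controls and 468, 519 and 517 in knockouts (log2 fold change 0.31, SE 0.091, limma P 0.0114), and Gnai2, far more abundant, had a log2 fold change of −0.12 (SE 0.047, limma P 0.0348). Numa1, which encodes the NuMA partner of LGN, was at 8902 and 9798 in controls and 8340.2, 8765 and 7765 in knockouts (log2 fold change −0.17, SE 0.070, limma P 0.0408). The Crumbs-associated adaptor gene Lin7c was higher, at 5018, 4608 and 4936 in knockouts against 4357 and 4364 (log2 fold change 0.15, SE 0.055, limma P 0.0252). Germline values were, on the log2 scale, 0.59 for Shroom3, 0.52 for Notch3 and 0.38 for Dll1, with overlapping groups. They lay between −0.10 and 0.15 for Gnai1, Gnai2, Numa1 and Lin7c. Groups did not overlap for 22 of the 76 genes in the inducible comparison (6 higher, 16 lower). The same held for 22.6% of all genes tested (10.4% higher and 12.2% lower). In the germline comparison groups did not overlap for 3 of the 76, all higher, against 13.5% of all genes (5.9% higher).

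**Figure D5:**
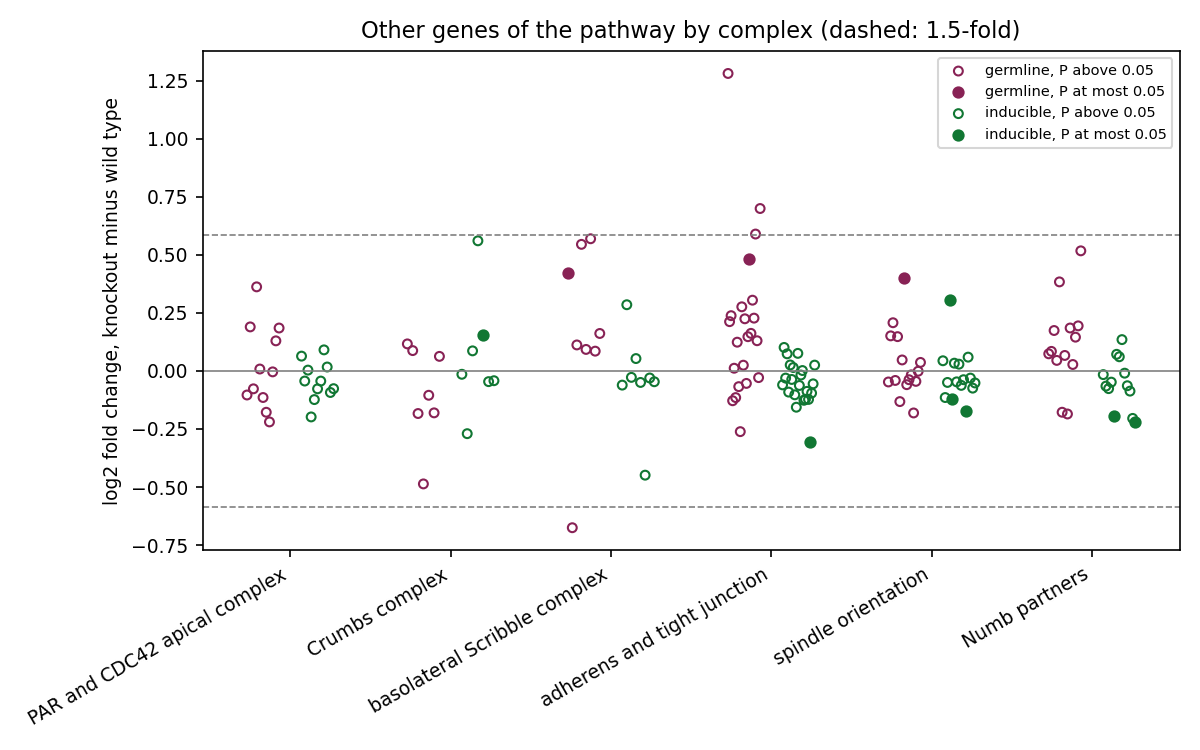
Log2 fold change, knockout minus wild type, of the 76 other pathway genes tested, by list, in germline (purple) and inducible (green) comparisons; filled points have P of at most 0.05 and dashed lines mark 1.5-fold. The 10 filled points all lie between the dashed lines, and points outside them are open.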

How the data were processed

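Forebrain or cortical RNA of E12.5 embryos was measured in 11 libraries in 2 tables. Per the labels and the study's methods, the authors selected poly(A) RNA, prepared TruSeq libraries, aligned reads to mm9 with TopHat (version 1.2.0 in the submitters' processing notes) and counted them once per gene on RefSeq exons. The signal the authors deposited is counts that they scaled per table with edgeR's TMM (trimmed mean of M-values) factors, neither divided by length nor logged. This scaling assumes that most genes do not change. The values are not whole numbers, so no count test was run, and 0 per-sample columns were left unused.

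Here log2(normalized count + 1) was fitted in R 4.3.3 with limma 3.58.1 (trend, two-sided), each table alone, over genes with a mean of at least 10. Genes were called at a fold change of at least 1.5 and unadjusted P of at most 0.05, with Benjamini-Hochberg adjustment over all genes tested. Fold changes of low genes are understated by the pseudocount. The fit was tested on simulated data. Named genes were the 10 members, pathway genes with P of at most 0.05, up to 10 per comparison, the 3 genes most like the member with the largest change, and Kif20a. Members, lists and tests were chosen with earlier results of these data known. Alternatives were other pseudocounts, no filter, quantile normalization, array weights, a Y-linked covariate, a replicate block and leaving out each library. Gene positions came from GENCODE M1 on NCBIM37. Protein sequences were not used here.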

Additional observations from a re-analysis of the deposited data

Results flagged for a closer look

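Gpsm2, the LGN gene, drew attention because its knockout libraries deviated in opposite directions in the 2 comparisons. All 3 germline knockouts lay above their wild-type mean (log2 fold change 0.046) and all 3 inducible knockouts below theirs (log2 fold change −0.15). The germline knockouts stayed inside the range of their wild types. Each table was fitted alone, and the difference between the comparisons was not tested.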

How the results depend on the processing

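At the 1.5-fold and P thresholds, 0 of 10 members were called under every alternative run in either comparison. With P of at most 0.05 alone and all libraries, 0 germline members passed as reported, against 5.39% of all genes. With no filter 1 did (Numb), against 5.71%. Inducible members passing were 2 as reported (6.01% of all genes), 3 with quantile normalization (6.14%) and 1 with no filter (6.49%). They were 0 with the Y-linked covariate or the replicate block, where only 1.03% and 3.22% of all genes passed. Pathway genes called in the germline comparison were 0 as reported (2.74% of all genes) and 3 with P alone (5.39%). They were 1 with quantile normalization (3.19%), 6 with array weights (7.49%) and 1 with the replicate block (2.70%). With 1 library left out they were 0 to 8. The count was 8 without knockout replicate 2 (8.77%), 2 without wild-type replicate 3 (2.54%) and 1 without knockout replicate 3 (7.33%). In the inducible comparison pathway genes called were 7 with P alone (6.01%) and 1 with the Y-linked covariate (1.03%). With 1 knockout library left out they were 0 to 1 (1, Llgl2, without knockout replicate 2, where 1.06% of all genes were called). The members' germline median of 0.19 was 0.020 with array weights, which gave knockout replicate 2 a weight of 0.176, and 0.028 to 0.27 with 1 library left out. The inducible median of −0.097 was −0.14 with the Y-linked covariate, −0.060 with the replicate block, in which knockout replicate 3 has no partner and does not enter, and −0.10 to −0.060 with 1 library left out. Germline signs turned with array weights for Llgl1 (−0.019) and Cdh2 (−0.21) and with the Y-linked covariate for Cdh2 (−0.069). With 1 library left out, germline values ran from −0.031 to 0.38 for Crb2, −0.026 to 0.28 for Llgl1, −0.21 to 0.29 for Cdh2 and −0.0095 to 0.43 for Numbl, and inducible Prkci from −0.016 to 0.090. The Y-linked covariate, nearly the same as genotype in the inducible table, turned Prkci (−0.20), Crb2 (0.044), Numb (0.69), Numbl (0.18), Afdn (−0.22), Lin7c (−0.31) and Numa1 (0.22), none with P of at most 0.05. The cause of the other changes was not tested. Whether replicate numbers pair the libraries could not be settled. Deviations of same-numbered germline libraries correlated at −0.12, 0.31 and 0.25, and differently numbered ones at between −0.36 and 0.33. Same-numbered inducible libraries correlated at −0.35 and −0.051. With 2 controls the deviations of one mirror those of the other, so these values cannot show pairing. The replicate block called 0 members. Counting error of the least expressed member was at most 5.28%, while 2 or 3 libraries a group limit the size of change that could be called.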

Other observations

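Over all 11 libraries, with each gene's log2 values centred within its own table, the 3 genes most like Numb were Caprin2 (Pearson r = 0.948), Wdr60 (0.948) and Mrc2 (0.944), and the 3 most like Crb2 were Ildr2 (0.966), Lzts2 (0.952) and Sgsh (0.950), among 13741 genes. Among the members, Pard3 and Cdh2 were most alike (r = 0.885) and Ctnnb1 and Afdn least (r = −0.50). These values describe libraries normalized together within each table, the germline ones with knockout replicate 2 among them, and they are given with no test.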
